A study of Homo sapiens and Mus musculus with 47 samples.

Results

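The collagen genes of the mouse were followed in NIH3T3 cells, a mouse fibroblast line, and Neuro-2a cells, a mouse neuroblastoma line. The members were every protein-coding gene named Col, a number, the letter a and a number. The rule gave 44 genes among the 55401 genes of the mouse tables, of which 21859 are protein coding. The rule used names only, and no measured value. All 44 stood in both tables, on 15 chromosomes.

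Chrom-seq marks RNA close to a chosen chromatin modification in living cells. A protein domain that reads the modification carries an array of GCN4 peptide tags, to which the peroxidase APEX2 binds through a single-chain antibody. RNA that APEX2 biotinylates is pulled down on streptavidin and its poly(A) fraction sequenced. The TAF3 libraries came from cells with the PHD domain of mouse TAF3, which binds H3K4me3, a mark of active promoters. The control libraries came from cells with the tag array and no reader domain. Both kinds of cell expressed the components for 48 h, were given biotin-aniline at 500 µM for 30 min and then H2O2 at 1 mM for 1 min. There were 3 libraries in each of the 4 groups, numbered as replicates. No label says whether replicates were separate cultures, so p-values measure the spread between libraries, which may be technical.

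All libraries hold biotinylated RNA, so a level here is that of labelled RNA and not of total cell RNA. Cells that carry less of an RNA cannot be told apart from fewer cells that carry it. Total counts ran from 16013327 to 17558305 in the NIH3T3 control group and from 15797217 to 17339776 with TAF3, and from 11045737 to 13317137 and from 10012172 to 11454449 in the same groups of Neuro-2a. Counts of Taf3, which hold the transgene as well as the gene, were 134 ± 5.80 CPM in the NIH3T3 control group and 8707 ± 706 CPM with the reader (SD, n = 3), and 178 ± 14.0 and 1665 ± 149 CPM in Neuro-2a. CPM is counts scaled to 1e+06 per library with TMM factors. Over all genes tested, 26.5% were lower and 25.2% were higher in the Neuro-2a control libraries than in those of NIH3T3. Of the fibroblast markers 10 of 10 tested were lower, and of the sympathetic neuroblast markers 11 of 11 tested were higher. Their summed levels ran from 4148 to 4358 CPM for the fibroblast list in NIH3T3 control libraries and from 651 to 761 CPM in Neuro-2a, and from 14.8 to 21.7 against 3248 to 3420 CPM for the neuroblast list. Thy1, Twist1 and Lum had no count in Neuro-2a, and Tubb3 had none in either line. Replicate 1 of the Neuro-2a TAF3 group stood apart from the other libraries of its group, since chi-square divided by the number of genes was 36.2 and 41.4 when it was compared with them and 3.35 when they were compared with each other. Results that rest on it are given with and without it.

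Collagens are matrix proteins built of trimers whose chains wind around each other in a helix rich in glycine, proline and hydroxyproline. Fibrillar collagens such as types I, III and V assemble into the banded fibrils that give connective tissue its strength, and fibroblasts are their classic source. Type IV collagen forms the sheet-like network of basement membranes, type VI forms beaded filaments around cells, and the remaining classes decorate fibrils, anchor epithelia or span the cell membrane.

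The bases upstream of the genes on which the line comparison turns are printed here, from the mm10 build (GRCm38.p6), because H3K4me3 lies at promoters. Each run is the 250 bases before the annotated gene start, 5′ to 3′ on the gene's own strand. Capitals mark the motif CCAAT or its reverse complement ATTGG, and TATAAA or its reverse complement TTTATA, which share no letters where they occur below. Col1a1 and Col1a2 code for the α1 and α2 chains of type I collagen, Col3a1 for type III, Col5a1 for the α1 chain of type V and Col6a5 for a type VI chain. In the order printed, the windows lie at chr11:94935974-94936223 on the plus strand, chr6:4504564-4504813 on the plus strand, chr1:45311288-45311537 on the plus strand, chr2:27886175-27886424 on the plus strand and chr9:105960644-105960893 on the minus strand.
Col1a1: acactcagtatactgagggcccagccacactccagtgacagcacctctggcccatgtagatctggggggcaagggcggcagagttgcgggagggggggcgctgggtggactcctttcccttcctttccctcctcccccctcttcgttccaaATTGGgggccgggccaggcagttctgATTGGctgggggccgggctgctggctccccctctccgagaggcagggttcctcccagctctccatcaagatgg
Col1a2: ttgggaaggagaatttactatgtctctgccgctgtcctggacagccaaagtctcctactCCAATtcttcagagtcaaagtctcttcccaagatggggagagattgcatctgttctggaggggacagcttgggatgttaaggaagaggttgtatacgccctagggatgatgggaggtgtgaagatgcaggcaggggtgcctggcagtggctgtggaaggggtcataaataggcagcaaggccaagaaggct
Col3a1: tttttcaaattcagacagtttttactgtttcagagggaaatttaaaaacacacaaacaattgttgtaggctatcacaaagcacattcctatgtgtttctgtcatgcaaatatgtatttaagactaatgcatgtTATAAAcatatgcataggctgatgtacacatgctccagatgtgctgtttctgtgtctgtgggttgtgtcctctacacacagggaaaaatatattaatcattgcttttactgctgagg
Col5a1: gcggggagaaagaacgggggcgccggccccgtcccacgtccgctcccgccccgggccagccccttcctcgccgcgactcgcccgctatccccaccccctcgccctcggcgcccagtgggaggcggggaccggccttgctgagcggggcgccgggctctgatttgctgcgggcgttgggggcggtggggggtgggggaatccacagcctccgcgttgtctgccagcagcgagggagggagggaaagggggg
Col6a5: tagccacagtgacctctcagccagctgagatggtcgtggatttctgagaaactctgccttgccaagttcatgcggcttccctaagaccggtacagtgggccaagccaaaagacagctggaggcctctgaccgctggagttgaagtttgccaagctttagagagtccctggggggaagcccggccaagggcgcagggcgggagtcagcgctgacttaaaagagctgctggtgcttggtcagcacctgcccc

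These 5 windows differ widely in CpG dinucleotides, the usual marker of promoters that sit in CpG islands. Col5a1 held 28 of them, Col6a5 held 8, Col1a1 held 7, Col1a2 held 2 and Col3a1 held 0. Over all 44 collagen genes the median was 7.5 and over the windows of 21838 protein-coding genes it was 8. The windows of Col4a1, Col4a2, Col6a4 and Col20a1 lay wholly within annotated exons, and those of Col4a3, Col4a4 and Col16a1 partly. No start site was measured here, so the windows need not be promoters in use. CCAAT on either strand was in 16 of 44 collagen windows and in 36.1% of all windows, and TATAAA on either strand was in 5 of 44 and in 11.6%. The collagen windows thus held these letters about as often as other windows of the same length did.

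The first question was which collagen RNAs each line holds when no reader is present. Most of the abundant matrix collagens of NIH3T3 were at or near 0 counts in Neuro-2a, which instead held 3 abundant chains, Col4a2, Col4a1 and Col6a5. Of the 44 genes, 36 passed the filter of a mean of 3 counts a library. Among these, 22 were lower in Neuro-2a, 10 were higher and 4 did not pass the test of adjusted p under 0.05 with a log2 fold change of at least 0.75 (edgeR's quasi-likelihood test, Benjamini-Hochberg over 18433 genes). Over all genes tested, 26.5% were lower and 25.2% were higher. The median log2 fold change of the 36, Neuro-2a minus NIH3T3, was -1.95, against -0.04 over all genes. A gene that passed the filter through the line where it is abundant had to differ, so these counts describe the family and are no support for it. The 8 that did not pass were Col6a4, Col9a1, Col9a2, Col10a1, Col13a1, Col15a1, Col19a1 and Col25a1.

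Fibrillar collagens, the rope-forming class, were lower in Neuro-2a for 8 of 11 genes and higher for 2. Col1a2 (ENSMUSG00000029661.16, mm10 chr6:4504814-4541544, plus strand) had 16761, 13442 and 15392 counts in the NIH3T3 control libraries, 14687, 14222 and 17572 with TAF3, 0 in every Neuro-2a control library and 0, 0 and 1 in Neuro-2a with TAF3. Its NIH3T3 control level was 957 ± 64.03 CPM (SD, n = 3). Against 3 counts over the Neuro-2a control group, about the 95% upper limit for a count of 0, it was at least 11530.3-fold lower in Neuro-2a. Its partner in type I collagen, Col1a1 (ENSMUSG00000001506.10, chr11:94936224-94953042, plus strand), had 8472, 6161 and 7491 counts in NIH3T3 control libraries and 0, 3 and 3 in those of Neuro-2a, a log2 fold change of -11.37 (SE 0.18, edgeR adjusted p = 2.99e-25). No library of one line reached the range of the other for either chain.

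The other chains that co-assemble with type I showed the same split. Col3a1 (ENSMUSG00000026043.18, chr1:45311538-45349706, plus strand) had 3970, 2496 and 3588 counts in the NIH3T3 control libraries and 0 in all 6 Neuro-2a libraries, at least 2542-fold lower in the controls. Col5a1 had 8585, 7392 and 7464 and Col5a2 had 5856, 5013 and 5687 in the NIH3T3 control libraries. Both had 0 counts in each Neuro-2a control library, which placed them at least 5928-fold and 4187-fold lower. Col5a3, a type V chain of narrower distribution, was lower by a smaller margin, with 530, 584 and 531 counts in NIH3T3 against 111, 83 and 78 in Neuro-2a (4.59-fold). Col27a1, a fibrillar collagen of cartilage, was 520-fold lower, and Col11a1 had 14, 23 and 14 counts against 0 in each Neuro-2a library, at least 12.9-fold lower.

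Col11a2, another fibrillar chain of cartilage, was the fibrillar gene with the highest level in Neuro-2a. It had 505, 584 and 486 counts in the NIH3T3 control libraries and 461, 444 and 384 in those of Neuro-2a, or 33.2 ± 4.65 and 35.8 ± 2.61 CPM. The groups overlapped, and the log2 fold change was 0.11 with a 95% interval from -0.12 to 0.33 (edgeR adjusted p = 0.39). The fibrillar genes higher in Neuro-2a were Col24a1, known from developing bone, with 206, 158 and 181 counts against 13, 3 and 13 (log2 fold change 4.61, SE 0.29), and Col2a1, the main cartilage collagen, with 9, 21 and 12 against 8, 5 and 5. The call on Col2a1 (log2 fold change 1.63, edgeR adjusted p = 0.0334) was lost without any 1 of 4 libraries, NIH3T3 control replicates 2 and 3 and Neuro-2a control replicates 2 and 3, with adjusted p from 0.0609 to 0.216.

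Type IV collagen divided by chain. The α1 and α2 chains, which build the basement membrane sheet in most tissues, are coded head to head on chromosome 8. Col4a2 (ENSMUSG00000031503.13, chr8:11312805-11449287, plus strand) had 9785, 8550 and 8447 counts in the NIH3T3 control libraries and 7514, 6429 and 5954 in those of Neuro-2a, or 563 ± 31.3 and 551 ± 16.8 CPM. The groups overlapped, with a log2 fold change of -0.03 and a 95% interval from -0.14 to 0.07 (edgeR adjusted p = 0.597). Col4a1 (ENSMUSG00000031502.11, chr8:11198423-11312826, minus strand) had 10896, 9360 and 9479 counts in NIH3T3 against 3306, 2993 and 2614 in Neuro-2a, or 625 ± 32.9 and 247 ± 14.2 CPM. It was 2.53-fold lower in Neuro-2a, with a log2 fold change of -1.34 (SE 0.06, edgeR adjusted p = 9.73e-17). Per kilobase of exon, Col4a1 was thus at 0.971 to 0.995 of Col4a2 in the NIH3T3 control libraries and at 0.389 to 0.413 in those of Neuro-2a. The annotated spans of the 2 genes share 22 bases on opposite strands, and whether the counting used strand is not stated in the sources used here.

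The minor type IV chains, which replace α1 and α2 in kidney, lung and other specialised membranes, were lower in Neuro-2a or too low to call. Col4a5 had 2234, 2121 and 2027 counts in the NIH3T3 control libraries and 0, 0 and 4 in those of Neuro-2a, and was 1210.4-fold lower. Its neighbour Col4a6 had 247, 203 and 206 against 0 in each, at least 166-fold lower. Col4a3 had 1, 11 and 21 against 0, 2 and 0 counts, a ratio of 12.5 with a 95% counting interval from 3.20 to 108, and its call was lost without Neuro-2a control replicate 1 (edgeR adjusted p = 0.0631) or replicate 3 (0.0638). Col4a4 had 5, 23 and 10 against 2, 8 and 4 counts and did not pass (edgeR adjusted p = 0.253). Col4a4 and Col4a3 are read away from each other on opposite strands across a gap of 71 bases at chr1:82586850-82586920, and neither reached a mean of 20 counts in either control group.

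Type VI collagen switched chains between the lines. Its basic trimer holds α1, α2 and α3 chains, and Col6a4, Col6a5 and Col6a6 code for long chains related to α3. Col6a3 (ENSMUSG00000048126.16, chr1:90765923-90843971, minus strand) had 16591, 14543 and 14846 counts in the NIH3T3 control libraries and 0 in each of those of Neuro-2a, at least 11628-fold lower. Col6a5 (ENSMUSG00000091345.9, chr9:105856078-105960643, minus strand) had 6, 4 and 2 counts in NIH3T3 and 6044, 5138 and 4962 in Neuro-2a, or 0.252 ± 0.116 and 447 ± 3.73 CPM. The log2 fold change of Col6a5 was 10.74 (SE 0.12, edgeR adjusted p = 1.25e-27). No library of one line came near the range of the other for either gene.

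The remaining type VI chains were lower in Neuro-2a where they were abundant in NIH3T3. Col6a1 had 6966, 4828 and 6093 counts against 55, 19 and 44, and was 115-fold lower. Col6a2 had 3756, 2788 and 3340 against 3, 0 and 0, a ratio of 2500 with a 95% counting interval from 855 to 12122. Col6a6 had 3, 2 and 4 against 32, 18 and 27 counts and was 11.3-fold higher in Neuro-2a (edgeR adjusted p = 2.39e-05), at a level of no more than a few CPM. Of the basic trimer, Neuro-2a thus held little but α1.

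Fibril-associated collagens, which coat fibrils and bridge them to their surroundings, held 4 genes that were lower and 2 that were higher among 6 tested. Col16a1 led the class in NIH3T3, with 6471, 6099 and 6342 counts against 244, 217 and 148 in Neuro-2a (23.6-fold lower). Col12a1 was 35.0-fold lower, Col20a1 2.43-fold lower and Col9a3 2.22-fold lower. Col22a1, found at junctions of muscle with tendon, led the class in Neuro-2a, with 383, 353 and 283 counts against 27, 16 and 14 in NIH3T3 (23.6-fold higher, log2 fold change 4.55, SE 0.21). Col14a1 had 46, 29 and 18 against 14, 6 and 15 counts and was 3.50-fold higher.

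Among the smaller classes, the short-chain collagen Col8a1, which builds hexagonal networks under endothelia, had 1141, 1172 and 1184 counts in NIH3T3 against 2, 0 and 1 in Neuro-2a, a ratio of 884 with a 95% counting interval from 302 to 4290. Col7a1, whose product forms the anchoring fibrils of skin, had 201, 91 and 105 against 402, 356 and 293 and was 3.49-fold higher in Neuro-2a. Col18a1, a multiplexin of basement membranes and the source of endostatin, had 17, 27 and 17 against 130, 108 and 97 and was 7.24-fold higher. Both of these groups of 3 were fully apart. The membrane-spanning Col17a1, a hemidesmosome protein, had 230, 248 and 241 against 88, 81 and 62 and was 2.36-fold lower, and Col28a1, known from peripheral nerve, had 436, 452 and 416 against 4, 0 and 2 and was 165-fold lower. Col26a1 had 6, 0 and 2 counts against 20, 9 and 9 and was higher (edgeR adjusted p = 0.0108), a call lost without Neuro-2a control replicate 1 (0.0645). Col23a1, a membrane collagen, had 15, 39 and 28 against 42, 42 and 41, and its call (edgeR adjusted p = 0.0187) was lost without NIH3T3 control replicate 1 or Neuro-2a control replicate 2 or 3.

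**Figure D1:**
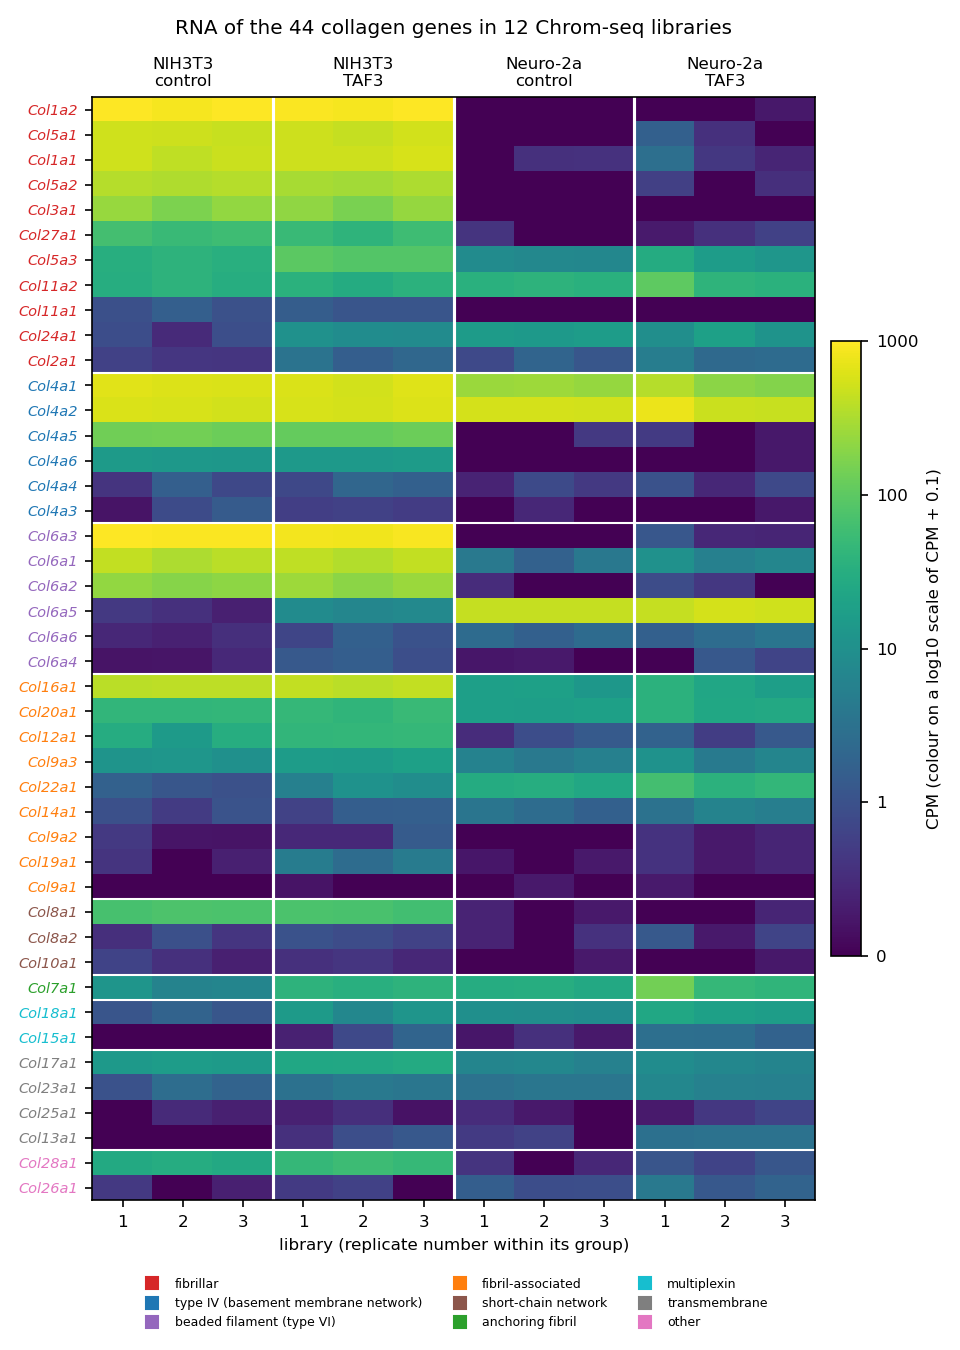
Level of the 44 collagen genes in each of the 12 libraries, as CPM on a log colour scale that saturates at 1000 CPM, with genes grouped by collagen class in rows and libraries grouped by line and reader in columns. The 3 Neuro-2a control libraries are at 0 counts for 8 genes, among them Col1a2, Col3a1 and Col6a3, while Col4a2 is between 531 and 607 CPM in all libraries but those of Neuro-2a with TAF3, which are at 758, 480 and 461 CPM.

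**Figure D2:**
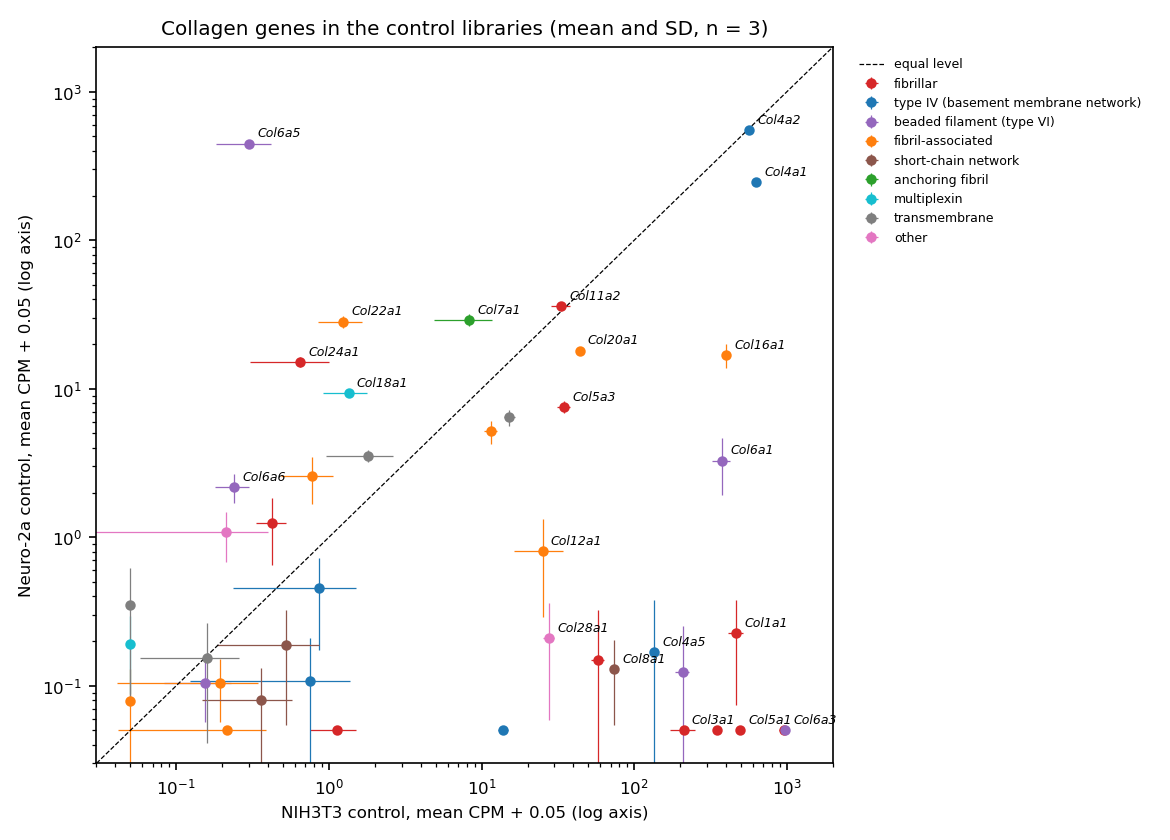
Mean CPM of each collagen gene in the NIH3T3 control libraries (x axis) and in the Neuro-2a control libraries (y axis), each plus 0.05 and on a log scale, coloured by collagen class, with bars for the SD (n = 3). Most genes lie below the line of equality, with Col6a5 far above it and Col4a2 on it.

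Summed over the family, collagen RNA made up 0.551 to 0.605% of all counts in the NIH3T3 control libraries and 0.140 to 0.148% in those of Neuro-2a. In NIH3T3 the fibrillar class held 41.4 to 43.4% of the collagen level in CPM, type VI held 25.1 to 25.7% and type IV held 21.1 to 23.0%. In Neuro-2a type IV held 55.3 to 56.2%, type VI held 30.8 to 32.5% and the fibrillar class held 4.07 to 4.24%. Col4a1, Col4a2 and Col6a5 together held 86.7 to 87.2% in Neuro-2a and 18.7 to 20.3% in NIH3T3. In each of these shares the 3 libraries of one line lay apart from the 3 of the other.

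Levels of different genes were compared per kilobase of exon, with the reservation that reads within introns may have been counted. In the NIH3T3 control libraries the order was led by 6 genes whose neighbours in the order overlapped, Col6a1 at 85.5 ± 11.9, Col4a2 at 85.0 ± 4.72, Col4a1 at 83.7 ± 4.40, Col6a3 at 80.8 ± 3.07, Col1a2 at 77.01 ± 5.15 and Col1a1 at 70.7 ± 8.13 CPM per exon kilobase (SD, n = 3). Col1a2 stood at 1.04 to 1.15 times Col1a1 on this scale. In the Neuro-2a control libraries the order was Col4a2 at 83.2 ± 2.54, Col6a5 at 47.5 ± 0.40, Col4a1 at 33.1 ± 1.90, Col11a2 at 5.21 ± 0.38 and Col20a1 at 3.50 ± 0.11 CPM per exon kilobase. Each of these 5 lay above the range of the next.

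At the other end, 14 genes had a mean under 20 counts in both control groups, and 8 of them stayed under 20 in all 4 groups. These 8 were Col4a3, Col6a4, Col8a2, Col9a1, Col9a2, Col10a1, Col11a1 and Col25a1, genes known from kidney, cartilage, cornea and brain among other tissues. Col9a1, a cartilage chain, had 0 counts in each NIH3T3 control library and at most 1 count in any library, and it was the 1 gene that no comparison of a pair of groups could test. Their low counts limit what any comparison of them can show.

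Genes that act on collagen chains were also compared between the lines, by lists. Shares over all genes were 26.5% lower and 25.2% higher, as above. Of genes for folding and modification, 10 of 23 tested were lower in Neuro-2a and 5 were higher. Serpinh1, the chaperone of procollagen in the endoplasmic reticulum, was 163-fold lower, and Fkbp10, a prolyl isomerase for procollagen, was 23.4-fold lower. Colgalt2 was 11.3-fold higher, with 10 counts over the NIH3T3 control libraries and 86 over those of Neuro-2a. The others called higher were P4ha2, Crtap, Ppib and Mia3. Of genes for maturation and crosslinking, 9 of 11 were lower and 1 was higher. Lox, the crosslinking lysyl oxidase, had 13762 counts over the NIH3T3 control libraries and 2 over those of Neuro-2a, a ratio of 5220.3 with a 95% counting interval from 1445 to 43110 that covers counting error only. Its relative Loxl2 went the other way, with 1 count in NIH3T3 and 5390 in Neuro-2a.

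Of collagen receptors, 4 of 10 were lower and 2 were higher. Those higher were the integrin α chains Itga1 (47.0-fold) and Itga2 (18.7-fold), and Mrc2, an endocytic collagen receptor, was 22.6-fold lower. All 4 collagen-degrading enzymes tested were lower, among them Mmp14, which was 824-fold lower. Of other matrix genes, 15 of 18 were lower and 2 were higher. Nid1, which links laminin to type IV collagen, had 70336 counts over the NIH3T3 control libraries and 3 over those of Neuro-2a.

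The same comparison of the lines was made in the TAF3 libraries, which share no library with the controls. Of 42 collagen genes tested, 22 were lower and 9 were higher in Neuro-2a, against 26.5% and 23.0% of 20112 genes (edgeR). The median log2 fold change was -1.42 for collagens and -0.07 for all genes. Of the genes called lower, 21 of 22 in each comparison were called lower in both, and 8 of 10 and 8 of 9 of those higher were higher in both. No gene changed direction. Col6a5 was 66.6-fold higher in Neuro-2a here, from 129, 109 and 130 counts in NIH3T3 to 4790, 6189 and 6223. Col24a1 had 164, 140 and 145 against 102, 211 and 139 counts and did not pass (log2 fold change 0.53, edgeR adjusted p = 0.0985). Without Neuro-2a TAF3 replicate 1 the counts were 24 lower and 6 higher (27.9% and 22.3% of all genes), and the log2 fold change of Col7a1 moved from 1.05 to 0.22, no longer called. Without that library Col18a1 (0.80 to 0.64) and Col23a1 (0.77 to 0.65) also fell out. Col24a1 was then at 0.70 (edgeR adjusted p = 0.00576) and stayed under the fold threshold. The call on Col7a1 was lost as well without any 1 NIH3T3 TAF3 library, that on Col18a1 without NIH3T3 TAF3 replicate 2 or 3, and that on Col4a3 without Neuro-2a TAF3 replicate 2. The call on Col23a1 was lost without NIH3T3 TAF3 replicate 1 or 3 or Neuro-2a TAF3 replicate 2, and that on Col6a6 without NIH3T3 TAF3 replicate 1 or 3 or Neuro-2a TAF3 replicate 2 or 3 (edgeR adjusted p from 0.0564 to 0.194 over these).

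The next question was which collagen RNAs were enriched by the TAF3 reader over the control in each line. In NIH3T3, 16 of 42 genes tested rose with TAF3 and 0 fell, where 10.7% of 19220 genes rose and 0.375% fell (edgeR). By DESeq2, 15 rose and 0 fell. At an unadjusted p under 0.05, 19 collagen genes had a positive and 4 a negative log2 fold change. The genes that rose were mainly collagens of low level in this line, and the abundant matrix chains Col1a1, Col1a2, Col3a1, Col4a1, Col4a2, Col5a1, Col5a2 and Col6a3 did not pass. The median log2 fold change was 0.60 for the 42 and 0.02 for all genes. Genes such as Col6a4, Col13a1 and Col15a1 passed the filter through the TAF3 libraries, where they are high, so they could only rise, and these counts and medians describe the family and support nothing. In 17 of the 42 the 3 TAF3 libraries lay above the 3 controls (19.8% of all genes) and in 3, Col4a5, Col5a2 and Col6a3, below them (17.2%).

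The long type VI chains rose in NIH3T3. Col6a5 had 6, 4 and 2 counts in control and 129, 109 and 130 in TAF3 libraries, a rise of 29.8-fold with a log2 fold change of 4.87 (SE 0.38, edgeR adjusted p = 2.63e-10). Col6a4 had 1, 1 and 3 against 19, 24 and 14 (log2 fold change 3.40, SE 0.85, edgeR adjusted p = 0.00429), and Col6a6 had 3, 2 and 4 against 9, 26 and 16 (2.42, SE 0.80, 0.0292). In all 3 the groups were apart, and the call on Col6a6 was lost without control replicate 1 or 2 or TAF3 replicate 2 or 3 (edgeR adjusted p from 0.0649 to 0.200). These genes lie in a row on the minus strand of chromosome 9, from 105687809 to 106096783, with gaps of 27.9 and 28.8 kb between them. By contrast, Col6a3 had 16591, 14543 and 14846 counts in control and 13431, 13465 and 15857 in TAF3 libraries, with a log2 fold change of -0.14 (edgeR adjusted p = 0.069).

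Of fibrillar collagens, Col24a1, Col2a1 and Col5a3 rose, 3 of 11. Col24a1 (ENSMUSG00000028197.4, chr3:145292472-145552011, plus strand) had 13, 3 and 13 counts in control and 164, 140 and 145 in TAF3 libraries, a rise of 15.0-fold (log2 fold change 3.92, SE 0.33, edgeR adjusted p = 1.53e-09). Col2a1 had 8, 5 and 5 against 50, 24 and 36 counts (2.57, SE 0.54, edgeR adjusted p = 0.000974). Col5a3 (ENSMUSG00000004098.7, chr9:20770050-20815067, minus strand) had 530, 584 and 531 against 1521, 1393 and 1472, a rise of 2.59-fold from a level of 34.7 ± 3.45 CPM (1.38, SE 0.09, edgeR adjusted p = 4.71e-12). All 3 genes were apart between the groups. For comparison Col1a1, at 464 ± 53.3 and 517 ± 44.1 CPM, had a log2 fold change of 0.17 (edgeR adjusted p = 0.0808), and Col1a2, at 957 ± 64.0 and 949 ± 74.6 CPM, one of -0.00 with a 95% interval from -0.12 to 0.12.

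Fibril-associated genes rose in 3 of 8 tested. Col19a1, known from muscle and brain, had 5, 0 and 2 counts in control and 72, 40 and 77 in TAF3 libraries (26.2-fold, log2 fold change 4.66, SE 0.59, edgeR adjusted p = 1.17e-06). Col22a1 had 27, 16 and 14 against 83, 178 and 157 (2.83, SE 0.31, edgeR adjusted p = 1.54e-07). Col12a1 had 487, 225 and 489 against 668, 728 and 793, and its call (0.85, SE 0.15) rested on control replicate 2, without which the log2 fold change was 0.59.

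Both multiplexins rose. Col18a1 (ENSMUSG00000001435.15, chr10:77052178-77166548, minus strand) had 17, 27 and 17 counts in control and 233, 112 and 211 in TAF3 libraries (8.86-fold, log2 fold change 3.15, SE 0.30, edgeR adjusted p = 1.11e-08). Col15a1 had 0 counts in each control library and 2, 11 and 32 with TAF3, which was at least 14.6-fold higher (edgeR adjusted p = 0.00261). Col7a1 rose as well, from 201, 91 and 105 to 604, 545 and 666 counts (4.44-fold, log2 fold change 2.17, SE 0.17, edgeR adjusted p = 3.64e-10).

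The 3 membrane-spanning collagens tested, Col13a1, Col17a1 and Col23a1, rose. Col13a1, known from the neuromuscular junction, had 0 counts in each control library and 4, 13 and 20 with TAF3, at least 11.99-fold higher (edgeR adjusted p = 0.00309). Col17a1 had 230, 248 and 241 against 368, 400 and 480 (log2 fold change 0.76, SE 0.12), just over the fold threshold, and fell under it without control replicate 1 (0.70) or TAF3 replicate 3 (0.69). Col23a1 had 15, 39 and 28 against 46, 66 and 61 (log2 fold change 1.03, edgeR adjusted p = 0.0449). Its call was lost by DESeq2 (adjusted p = 0.0510) and without any 1 of 5 of the 6 libraries, all but control replicate 2 (edgeR adjusted p from 0.0556 to 0.195). Col28a1 had 436, 452 and 416 against 703, 900 and 825 and rose by a log2 fold change of 0.86 (SE 0.10, edgeR adjusted p = 3.95e-07).

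**Figure D3:**
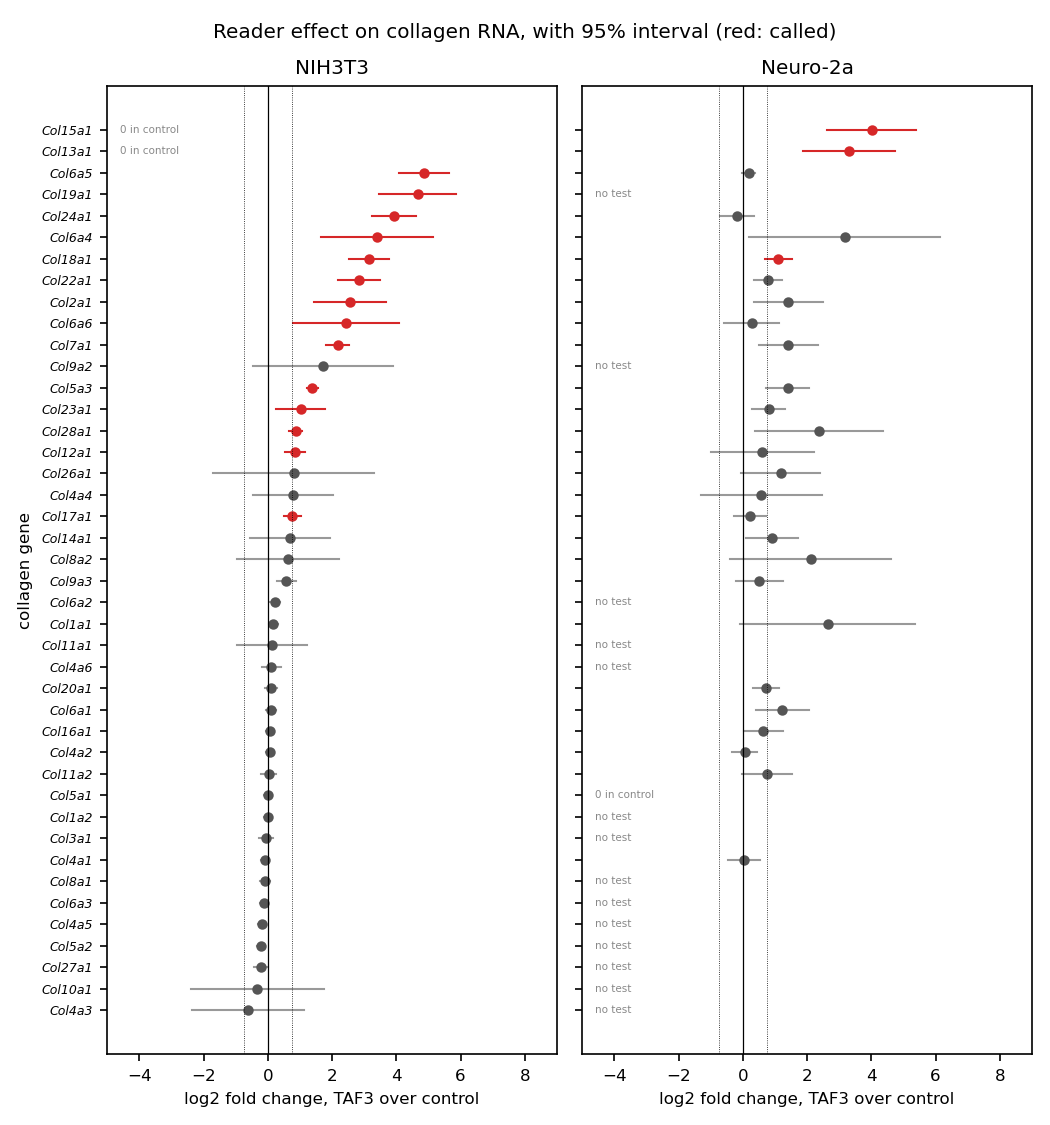
Log2 fold change of TAF3 over control in NIH3T3 and in Neuro-2a for the 42 collagen genes tested in NIH3T3 (rows), as points with 95% intervals from edgeR, red where called, and words where a gene was not tested or had 0 counts in control. Dotted lines stand at a log2 fold change of 0.75 in either direction. Col6a5 and Col24a1 lie far to the right of 0 in NIH3T3 and near 0 in Neuro-2a, and Col15a1 and Col13a1 lie to the right in Neuro-2a.

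Collagens in NIH3T3 were also described by abundance, split by their mean count over all 6 NIH3T3 libraries, with no test between the ranges. Of those under 20 counts, 4 of 12 tested rose, against 20.9% of protein-coding genes in that range, and the median log2 fold change was 0.79, under the 1.00 of protein-coding genes. The 4, Col6a4, Col6a6, Col13a1 and Col15a1, passed the filter through their TAF3 counts and could only rise. The count and median of the range under 20 are thus a description only. Of those from 20 to 1000 counts, 11 of 16 rose, against 8.78%, with a median of 0.94 against -0.02. The TAF3 libraries enter this mean, and Col2a1, Col6a5, Col19a1, Col22a1 and Col24a1, each with a mean under 20 counts in control, are in the middle range through their TAF3 counts, so the count and median of that range are a description only. Of those at 1000 counts or more, 1 of 14 rose, Col5a3, against 0.284%. The log2 fold changes of these 14 ran from -0.21 to 1.38 with a median of 0.00, and the Spearman correlation of log2 fold change with mean count was -0.52 over 42 collagens and -0.37 over 14349 protein-coding genes, values that share the same libraries. Adjusted p was under 0.05 with too small a fold for 4 genes, Col9a3 (0.58), Col6a2 (0.22), Col4a5 (-0.18) and Col5a2 (-0.21).

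**Figure D4:**
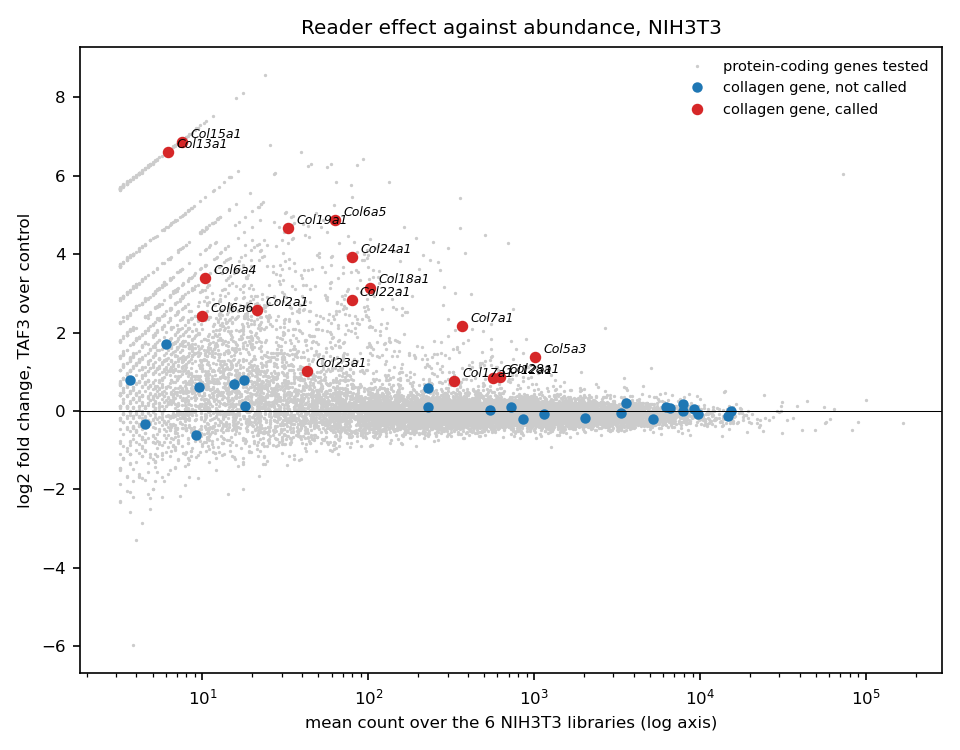
Log2 fold change of TAF3 over control in NIH3T3 (y axis) against the mean count over the 6 NIH3T3 libraries (x axis, log scale) for collagen genes, with all protein-coding genes tested behind them. The 14 collagens at 1000 counts or more lie near 0 apart from Col5a3 at 1.38, and fitted values of Col13a1 and Col15a1, which had 0 counts in control, depend on the prior count and are no measure of size.

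Markers of other cell types were read beside these rises. In NIH3T3, 10.7% of all genes rose with TAF3, as did 20.9% of protein-coding genes with a mean under 20 counts. Of endothelial markers 3 of 4 tested rose (Cdh5, Tek and Kdr), and of epithelial markers 3 of 3 (Cdh1, Krt8 and Krt18). Their summed levels went from a range of 13.1 to 15.9 CPM to one of 31.1 to 41.6 CPM, and from 1.58 to 2.38 CPM to 4.37 to 7.29 CPM, with Krt19 at 0 counts. Of macrophage markers 1 of 4 rose and of neuroblast markers 1 of 4 rose, which was Elavl4. Elavl4 had 0 counts in control, and Cdh1 and Krt18 did not pass the filter in the comparison of the control lines. All of them entered here through their TAF3 counts, so these marker counts are a description only. The 13 neuroblast markers summed to 14.8 to 21.7 CPM in control and 20.9 to 27.6 CPM in TAF3 libraries. Of these 13, 7 had no count in the NIH3T3 control libraries, Elavl4 among them. With TAF3, 5 had no count, Hand2 and Stmn2 among them. Chgb, at 1552 CPM in the Neuro-2a TAF3 libraries, was at 0.52 CPM in NIH3T3 with TAF3. Of 11 fibroblast markers, 2 chondrocyte markers and 2 Schwann cell markers tested, 0 were called by edgeR or DESeq2, and 6, 1 and 0 had an unadjusted p under 0.05. The part of these lists in the collagen values was not tested.

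The lists of genes that act on collagen were read in the same comparison, where 10.7% of all genes rose. The calls were P3h2, 1 of 23 genes for folding and modification, Loxl4, 1 of 11 for maturation and crosslinking, and Fbln1 and Fbn2, 2 of 18 other matrix genes. Of 10 receptors and 5 degrading enzymes tested, 0 were called by edgeR or DESeq2, and 2 and 3 of them had an unadjusted p under 0.05.

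In Neuro-2a, 3 of 28 collagen genes tested rose with TAF3, against 1.01% of 17006 genes, and 0 fell, against 0.0235% (edgeR). By DESeq2, 5 rose and 0 fell, and at an unadjusted p under 0.05, 15 had a positive and 0 a negative log2 fold change. The genes that rose were both multiplexins and a membrane collagen. Col15a1 had 1, 3 and 1 counts in control and 30, 30 and 21 in TAF3 libraries (17.01-fold, log2 fold change 4.01, SE 0.62, edgeR adjusted p = 0.0158). Col13a1 had 5, 6 and 0 against 31, 36 and 38 (3.31, SE 0.64, 0.0427), and Col18a1 had 130, 108 and 97 against 254, 211 and 205 (2.1-fold, 1.11, SE 0.18, 0.0224). The TAF3 libraries lay above all controls for each of them. Over the 28 tested, the median log2 fold change was 0.85, against 0.03 for all genes (0.51 against 0.01 without TAF3 replicate 1, over 25 tested), and in 11 of the 28 the TAF3 libraries lay above all controls (12.8% of all genes). None of them lay below all controls (13.4%). Col13a1 and Col15a1 passed the filter through the TAF3 libraries, where they are high, so they could only rise. These counts and medians describe the family and support nothing.

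Markers of other cell types were read here too. Endothelial markers summed to 9.15 to 11.2 CPM in control and 16.98 to 18.91 CPM in TAF3 libraries, and epithelial markers to 0.262 to 0.446 and 1.63 to 3.55 CPM. Of 2 endothelial and 3 epithelial markers tested, 0 were called by edgeR and 1 in each list by DESeq2, with 1 and 2 at an unadjusted p under 0.05. Over all 17006 genes, edgeR called 172 higher and 4 lower, and DESeq2 called 385 and 13. Their part in the collagen values was not tested.

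The calls in Neuro-2a turned on single libraries. They went from 3 to 0 without any 1 control library or without TAF3 replicate 2 (edgeR adjusted p from 0.0529 to 0.204 for the 3 genes). Without TAF3 replicate 3 they were again 3 in number, but Col13a1 lost its call (edgeR adjusted p = 0.106) and Col5a3 gained one (0.0265). The calls went to 7 of 25 tested without TAF3 replicate 1, when 3.34% of 16940 genes rose. The 7 were Col15a1 (3.88), Col6a4 (3.73), Col13a1 (3.34), Col14a1 (1.12), Col5a3 (0.95), Col18a1 (0.94) and Col6a1 (0.92), by log2 fold change. Col6a4, Col13a1 and Col15a1 entered through their TAF3 counts, so the count of 7 is a description only. With the replicate number as a block the call on Col13a1 was lost (edgeR adjusted p = 0.0581) and Col5a3 was called (0.0254). Replicate 1 was high for several genes. Col7a1 had 402, 356 and 293 counts in control and 1517, 516 and 503 with TAF3, a log2 fold change of 1.41 (edgeR adjusted p = 0.135), which was 0.58 without replicate 1. Col11a2 had 461, 444 and 384 against 1091, 447 and 444 counts, with a log2 fold change of 0.75 (edgeR adjusted p = 0.32), which was 0.09 without replicate 1. Of the abundant collagens, Col4a2 (7514, 6429 and 5954 against 8104, 5461 and 5674 counts) and Col4a1 (3306, 2993 and 2614 against 3888, 2256 and 2248) had log2 fold changes of 0.06 and 0.03, and -0.21 and -0.36 without replicate 1.

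The excess in replicate 1 went with base composition. Among 21 collagen genes with at least 20 counts in the Neuro-2a TAF3 libraries, the ratio of replicate 1 to the mean of replicates 2 and 3 rose with the GC content of the transcript, with a Spearman correlation of 0.80. Over 11509 protein-coding genes it was 0.59, and both are across genes of the same 3 libraries. The ratio was 3.29 for Col7a1, 2.71 for Col11a2, 0.85 for Col6a5 and 0.64 for Col24a1. Its median was 2.04 for 8 collagens with at least 60% GC and 1.29 for the 13 below, against 1.64 for 595 protein-coding genes with at least 60% GC and 0.98 for all. Collagen transcripts are rich in GC, with a median of 55.4% against 49.1% for protein-coding genes. The part of base composition in the Neuro-2a values was not tested beyond leaving the library out.

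**Figure D5:**
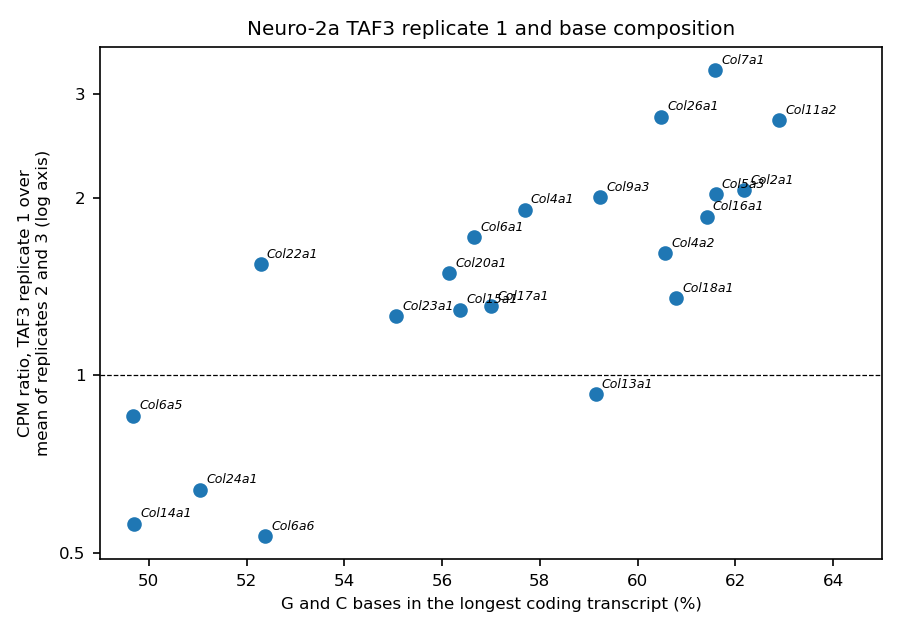
Ratio of replicate 1 to the mean of replicates 2 and 3 in the Neuro-2a TAF3 group (y axis, log scale) against GC content of the longest coding transcript in percent (x axis), for 21 collagen genes. The 8 with at least 60% GC all lie above 1, with Col7a1 at 3.29, and Col24a1 lies below 1 at 0.64.

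The difference of the TAF3 effect between the lines was tested as an interaction over all 12 libraries. Of 41 collagen genes tested, 4 had a lower effect in Neuro-2a than in NIH3T3 and 1 a higher one, against 2.33% and 0.718% of 19509 genes (edgeR). The 4 were Col6a5 (log2 difference -4.69, SE 0.26, edgeR adjusted p = 7.33e-09), Col24a1 (-4.10, SE 0.44, 2.01e-05), Col22a1 (-2.06, SE 0.39, 0.00428) and Col18a1 (-2.05, SE 0.39, 0.00504). All 4 were higher in the Neuro-2a control libraries than in those of NIH3T3. In CPM per exon kilobase, Col6a5 went with TAF3 from 0.03 to 0.80 in NIH3T3 and from 47.5 to 53.1 in Neuro-2a. Col24a1 went from 0.08 to 1.21 and from 1.98 to 1.72, and Col22a1 from 0.13 to 0.92 and from 3.07 to 5.21. Col18a1 went from 0.18 to 1.62 and from 1.32 to 2.80. Taf3 counts with the reader were higher in NIH3T3, as given above. The part of these levels was not tested. Col6a5 had 6044, 5138 and 4962 counts in Neuro-2a control and 4790, 6189 and 6223 in TAF3 libraries, overlapping groups with a log2 fold change of 0.18 and a 95% interval from -0.03 to 0.39. Without TAF3 replicate 1 it was 0.25, from 0.13 to 0.36 (edgeR adjusted p = 0.00181), under the fold threshold. Col24a1 had 206, 158 and 181 against 102, 211 and 139, also overlapping (-0.18, edgeR adjusted p = 0.746), and was at -0.01 without that replicate. Col22a1 had 383, 353 and 283 against 669, 423 and 541 (0.79, edgeR adjusted p = 0.0894), and was at 0.54 without it (0.000813). Without TAF3 replicate 1 these 4 were called again, with Col7a1 (-1.59) as the fifth, when 3.25% of all genes were called lower.

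Among the collagens, Col6a3 was the gene with a higher effect in Neuro-2a, and it rested on few counts. It had 0 counts in each Neuro-2a control library and 12, 2 and 2 with TAF3, against an abundant and nearly level RNA in NIH3T3. The call (edgeR adjusted p = 0.0228) was lost without TAF3 replicate 1 (0.0621) and without any 1 Neuro-2a control library (0.0635 to 0.0746), and its size depends on the prior count because the control is at 0. Several other NIH3T3-abundant chains also had low counts in Neuro-2a with TAF3. Col1a1 had 30, 4 and 2 and Col5a1 had 17, 3 and 0, most of them in replicate 1, and neither passed (edgeR adjusted p = 0.325 and 0.233). Of the other gene lists, Adamts2, Dcn, Nid1 and Cd44 were also called higher in the interaction, and Loxl4, Fbln1, Elavl4 and Tek were called lower.

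Gene position was read for what the members share beyond their names. There were 10 pairs of neighbouring collagen genes within 500 kb, which held 18 of the 44 genes. Some pairs were at like levels in a line and others were not. Col3a1 and Col5a2, 24.6 kb apart on chromosome 1, both had at least 2496 counts in each NIH3T3 control library and 0 in the Neuro-2a control libraries. Col6a1, Col6a2 and Col18a1 lie within one stretch of chromosome 10, with gaps of 85.2 and 326 kb, yet Col18a1 was higher and the type VI genes were lower in Neuro-2a. Gene span, from 7.11 to 468 kb, had a Spearman correlation of 0.17 with the TAF3 log2 fold change in NIH3T3 over 42 collagens and -0.01 over 14349 protein-coding genes. In all, 16 collagen genes overlap no other annotated gene and 5 overlap a protein-coding gene on the opposite strand, Col4a1 and Col4a2 (each other), Col9a3 (Tcfl5), Col10a1 (Nt5dc1) and Col18a1 (Slc19a1), whose reads may be mixed. A further 23 overlap noncoding genes only, on either strand, among them 10 of the genes that rose in NIH3T3, Col5a3, Col6a4, Col6a6, Col7a1, Col12a1, Col13a1, Col15a1, Col19a1, Col22a1 and Col24a1, and their values carry the same reservation.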

How the data were processed

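Chrom-seq libraries of 2 mouse lines were used, 12 libraries in 4 groups taken from the sample titles. Raw counts per gene were deposited by the authors with no normalization. Per the study's methods and the submitters' processing notes, reads were trimmed with fastp 0.23.1, aligned to mm10 with HISAT2 2.1.0 and counted with featureCounts 2.0.1 over GENCODE genes. Strand and multi-mapping settings were not given in the sources used here. The tables give gene spans as lengths, so intron reads may be included, and reads of overlapping or closely related genes are uncertain. Other tables of the series were not used here.

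Differences in counts were tested in R 4.3.3 with edgeR 4.0.16 (quasi-likelihood F-test, TMM scaling, Benjamini-Hochberg adjustment over all genes). Genes entered with a summed count over 18 (6 libraries) or 36 (12 libraries). A call required adjusted p < 0.05 together with an absolute log2 fold change no smaller than 0.75. SE was the log2 fold change over the root of F. The tests were also run on simulated data. DESeq2 1.42.0, other scalings and filters, the replicate block and leaving out each library were alternatives. Folds against groups at 0 counts used 3 counts over the group, about the 95% upper limit for a count of 0. Folds given as at least a value thus cover counting error only and are no hard bounds. Intervals of ratios are 95% Clopper-Pearson intervals and cover counting error only, since PCR reads are not independent molecules. Bases came from the GRCm38.p6 genome. Exon lengths and GC content came from an earlier GENCODE release than the one the paper names for counting. Levels per exon kilobase thus divide counts of one release by lengths of another. All collagen genes could be named. From the other lists, genes were taken by size of change in the control libraries, and called genes were named after their values were seen. The members and lists were chosen with earlier results of these data known. Some single marker genes are not reported here.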

Additional observations from a re-analysis of the deposited data

Results flagged for a closer look

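The effect of the TAF3 reader differed between the lines, by the interaction test of edgeR, for 5 collagen genes. As the log2 effect in Neuro-2a minus that in NIH3T3, the values were -4.69 for Col6a5, -4.10 for Col24a1, -2.06 for Col22a1, -2.05 for Col18a1 and 5.87 for Col6a3. The 4 genes with negative values were higher in the Neuro-2a control libraries than in those of NIH3T3, and the part of that was not tested. Col6a5 and Col24a1 went from 12 to 368 and from 29 to 449 counts over 3 libraries in NIH3T3. In Neuro-2a their groups overlapped, and without TAF3 replicate 1 their log2 fold changes were 0.25 and -0.01. The value of Col6a3 comes from 0 counts in the Neuro-2a control libraries and 16 counts over the TAF3 libraries, 12 of them in replicate 1.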

How the results depend on the processing

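Across the 5 comparisons, 116 of 132 recomputed counts of called collagen genes stayed within 1.5 times the reported count. Among the single genes followed, 1180 of 1257 values kept their direction and side of the threshold. Of the others 68 lost and 9 gained a call, and 0 reversed. The single genes followed were not all genes tested. Calls gained by genes outside them, such as Col6a1 and Col14a1 without Neuro-2a TAF3 replicate 1, are not among the 9. For collagen genes that rose with TAF3 in Neuro-2a, reported as 3, DESeq2 gave 5 and no filter gave 9. For a higher TAF3 effect in Neuro-2a, reported as 1, DESeq2 gave 2, no filter gave 5 and the replicate block gave 4. The cause was not tested. Leaving out 1 library at a time gave 12 to 15 genes that rose and 0 that fell with TAF3 in NIH3T3, 0 to 7 and 0 in Neuro-2a, 8 to 9 higher and 21 to 22 lower between control lines, 6 to 9 and 21 to 24 between TAF3 lines, and 0 to 3 higher and 4 to 5 lower in the interaction. Same-numbered libraries had correlations of deviations from -0.041 to 0.073, so the numbers were not taken as pairs, although in the comparisons of control lines and of TAF3 in Neuro-2a each library correlated best with its own number. With the replicate block 15 genes rose in NIH3T3 and 3 in Neuro-2a, where Col13a1 lost its call (adjusted p = 0.0581) and Col5a3 gained one (0.0254), and Col6a6 in NIH3T3 (0.0745) and Col2a1 between control lines (0.1002) lost theirs, as did Col4a3 (0.0676), Col6a6 (0.0709) and Col23a1 (0.0791) between TAF3 lines. Depth limits genes with a mean under 20 counts, where few reads decide a call.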
